A study of Mus musculus with 15 samples.

Results

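The guidance ligands and receptors are 66 mouse genes, 35 ligands and 31 receptors, out of 25206 probe sets on the arrays. A gene was included by its symbol alone, but the set itself was chosen with earlier results of these data known. Every gene of the reference annotation with a matching symbol had 1 probe set. There were 20 semaphorins (Sema3a to Sema7a) and their 9 plexin receptors, 8 ephrins and their 14 Eph receptors, 3 Slits and their 4 Robo receptors, and 4 netrins with 4 receptors of the Unc5 family. They were followed in mouse induced pluripotent stem cells (iPSC) on their way to becoming smooth muscle. Their reporter, Acta2hrGFP, marks activity of the smooth muscle actin gene Acta2 with green fluorescent protein (GFP). The 5 groups of 3 samples each were undifferentiated iPSC at day 0, mesodermal progenitors sorted at day 5 for Kdr (also called Flk-1), GFP+ cells and GFP- cells sorted at day 13, and primary smooth muscle cells from the aorta that were also positive for Acta2hrGFP. Samples are labelled as biological triplicates, with nothing on whether the iPSC line is 1 clone, the age of the mice or any pooling of aortas, so p-values rest on the spread between these triplicates.

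Guidance cues were named for steering axons, and the same proteins position cells in many tissues. Semaphorins bind plexins, with neuropilins as partners for most of the secreted class 3 members. Ephrins are membrane-bound and signal through Eph receptors on the neighbouring cell, and also back into their own cell. Slits are secreted and mostly repel cells that carry Robo receptors, and netrins attract through Dcc or repel through the Unc5 family. In blood vessels ephrin-B2 (Efnb2) marks arteries and its receptor EphB4 (Ephb4) marks veins, while plexin D1 (Plxnd1) and Unc5b are known from the vascular endothelium.

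All values are log2 expression values as deposited by the authors (RMA, a standard background correction, normalization and probe summary for Affymetrix arrays). A difference of 1 is a 2-fold change. The upper quartiles of the 15 samples lay between 5.93 and 6.20, and across genes r was 0.977 to 0.995 between samples of the same group. The number of arrays, 3 per group, limits the precision of every value. Marker lists were written with results of these data known, and hold Kdr, the gene sorted for at day 5, and Acta2, the gene of the reporter. All 8 pluripotency markers were highest at day 0, all 8 early mesoderm markers at day 5, and all 10 contractile smooth muscle markers in the aortic cells. The highest means of Dppa5a (3.79 at day 0) and Mesp1 (4.02 at day 5) were under 4.28, the median of all probe sets. The GFP- cells of day 13 also held the highest level of 5 of 8 endoderm and epithelial markers. In both sorts of day 13 the sample numbered 3 stood apart from those numbered 5 and 6, and 293 probe sets (1.16%) differed by at least 1 on the log2 scale between that sample and the mean of the other two in both sorts. Among the guidance genes Sema3a, Sema3c and Slit2 did so. Differences were called at an adjusted p under 0.05 (limma with Benjamini-Hochberg adjustment over all probe sets), and "rose", "fell", "higher" and "lower" are used of such calls.

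**Figure D1:**
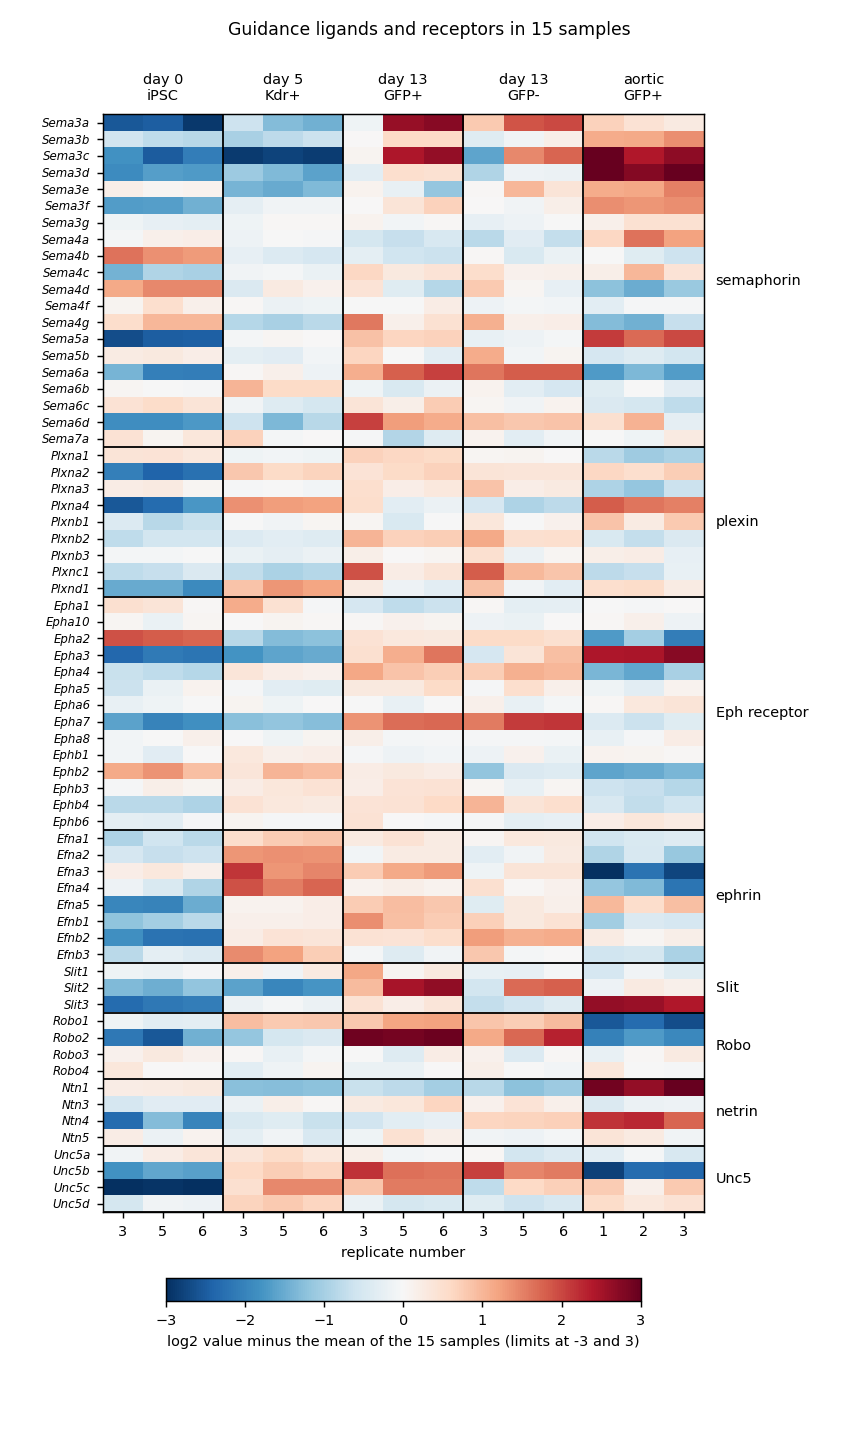
Heat map of the 66 guidance genes (rows, by family) in the 15 samples (columns, by group and replicate number); the colour is the log2 value minus the mean of that gene over the 15 samples, with limits at -3 and 3. Ephrins are red at day 5, Sema3a, Slit2, Robo2 and Epha7 at day 13, and Ntn1, Slit3 and Sema3d in the aortic samples.

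Group means of the guidance genes spanned at least 1 log2 unit in 48 of 66 genes and at least 3 in 21. The same spans were not counted over all probe sets, so these counts show nothing particular to guidance genes. The highest mean lay in day 0 iPSC for 10 genes (15.2%, and 22.5% of all probe sets), in day 5 Kdr+ cells for 12 (18.2% and 19%), in day 13 GFP+ cells for 17 (25.8% and 13%), in day 13 GFP- cells for 9 (13.6% and 7.86%) and in aortic cells for 18 (27.3% and 37.7%). In 9 genes every group mean stayed under 4.28, the median of all probe sets. These were Sema4f, Plxnb3, Epha5, Epha6, Epha8, Ephb1, Robo3, Robo4 and Ntn5, with means between 2.12 for Epha6 at day 0 and 3.80 for Ephb1 at day 5. Without calls of presence, levels under this median are not shown to lie above background. Where 1 group of a comparison has such a mean, the difference is one between array values, and neither its size nor its rank is exact as a change in RNA.

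Day 5 Kdr+ cells were compared with day 0 iPSC to show which guidance genes changed as pluripotent cells became mesoderm. All 8 ephrins rose, by 1.18 to 2.43 on the log2 scale, and so did the netrin receptors Unc5b, Unc5c and Unc5d, the plexins Plxna2, Plxna4 and Plxnd1 and the receptors Robo1 and Robo2. The Eph receptor Epha2, the netrin Ntn1 and 5 semaphorins fell. In all 30 genes rose and 8 fell, 57.6% of the 66, against 28.8% of all probe sets. Among probe sets with a mean above the median, 70% of the 50 guidance genes that remained were called, against 48.7% of all. The groups did not overlap in 51 of 66 guidance genes and in 46.0% of all probe sets. The median log2 difference was 0.31 over the guidance genes and -0.01 over all probe sets.

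The ephrins are shown first because the whole family moved one way. Efnb2, the arterial ephrin, stood at 8.22, 8.41 and 8.36 in day 5 samples, against 6.17, 5.78 and 5.77 in day 0 samples, a log2 difference of 2.43 (SE 0.126, 5.37-fold, limma adjusted p = 7.72e-10). Efna4 had 7.39, 7.01 and 7.22 at day 5 and 5.32, 5.02 and 4.57 at day 0 (log2 difference 2.23, SE 0.236, limma adjusted p = 2.2e-06). Neither gene had an overlap between the groups. The differences of the other ephrins were 1.96 for Efna5, 1.95 for Efna2, 1.63 for Efnb3, 1.49 for Efna1, 1.42 for Efna3 and 1.18 for Efnb1, with adjusted p from 2.21e-07 to 0.0128, and in each the 3 day 5 samples lay above the 3 day 0 samples. The call of Efna3 was lost without day 5 sample 3 (adjusted p = 0.069). Efna1, Efna3 and Efna4 are neighbours on chromosome 3 in the RefSeq annotation. Of their receptors, Epha4, Epha7, Ephb1 and Ephb4 rose (0.99, 0.58, 0.37 and 1.18) and 9 of 14 were not called. Epha2, a receptor of A-class ephrins, had 5.25, 4.80 and 4.86 at day 5, against 7.995, 7.91 and 7.83 at day 0 (log2 difference -2.94, SE 0.201, limma adjusted p = 1.76e-08).

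Promoters of 3 ephrins that rose together are printed from RefSeq (GRCm38.p6), each from 250 bases before to 50 after the annotated start, 5′ to 3′ on the strand of the gene. Capitals mark a GC box (GGGCGG, a site of Sp family factors) or a TATA box (TATAAA), or a CArG box, the element bound by SRF, a regulator of smooth muscle genes. Each was searched on both strands, so that a match on the other strand reads CCGCCC or TTTATA. The Efna2 window is chr10:80179232-80179531 (+ strand), the Efna4 window chr3:89337979-89338278 (- strand) and the Efnb2 window chr8:8661193-8661492 (- strand).
Efna2: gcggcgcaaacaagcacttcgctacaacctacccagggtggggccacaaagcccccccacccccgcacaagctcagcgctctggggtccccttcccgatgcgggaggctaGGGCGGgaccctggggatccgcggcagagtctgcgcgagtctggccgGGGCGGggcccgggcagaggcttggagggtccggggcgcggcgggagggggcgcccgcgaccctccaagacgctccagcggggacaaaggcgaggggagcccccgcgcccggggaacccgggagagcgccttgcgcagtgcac
Efna4: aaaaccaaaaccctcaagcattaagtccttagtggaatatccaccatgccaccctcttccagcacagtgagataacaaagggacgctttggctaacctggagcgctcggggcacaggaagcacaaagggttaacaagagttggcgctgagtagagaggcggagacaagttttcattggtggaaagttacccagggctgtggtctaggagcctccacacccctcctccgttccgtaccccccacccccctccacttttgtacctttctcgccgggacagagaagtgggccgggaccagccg
Efnb2: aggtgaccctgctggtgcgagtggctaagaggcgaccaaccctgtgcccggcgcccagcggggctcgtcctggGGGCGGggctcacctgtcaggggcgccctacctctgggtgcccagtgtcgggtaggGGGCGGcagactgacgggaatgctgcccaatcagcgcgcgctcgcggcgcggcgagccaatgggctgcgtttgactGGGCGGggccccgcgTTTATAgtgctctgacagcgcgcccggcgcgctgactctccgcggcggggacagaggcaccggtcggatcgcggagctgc
The Efna2 window held 31 CpG and 2 GC boxes. The Efna4 window held 11 CpG and none of the motifs. Efnb2 had 35 CpG, 3 GC boxes and 1 TATA box. A GC box was found in 7 of the 9 windows of the 7 ephrin genes with an entry, in 51 of the 73 windows of 57 guidance genes (69.9%) and in 35.7% of the 32851 windows of the table. A TATA box was found in 2.74% of the guidance windows (those of Efnb2 and Slit2) and in 13.6% of all. The windows have a median of 19 CpG for guidance genes and 7 for all genes. These matches describe the letters of the windows and test no factor.

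**Figure D2:**
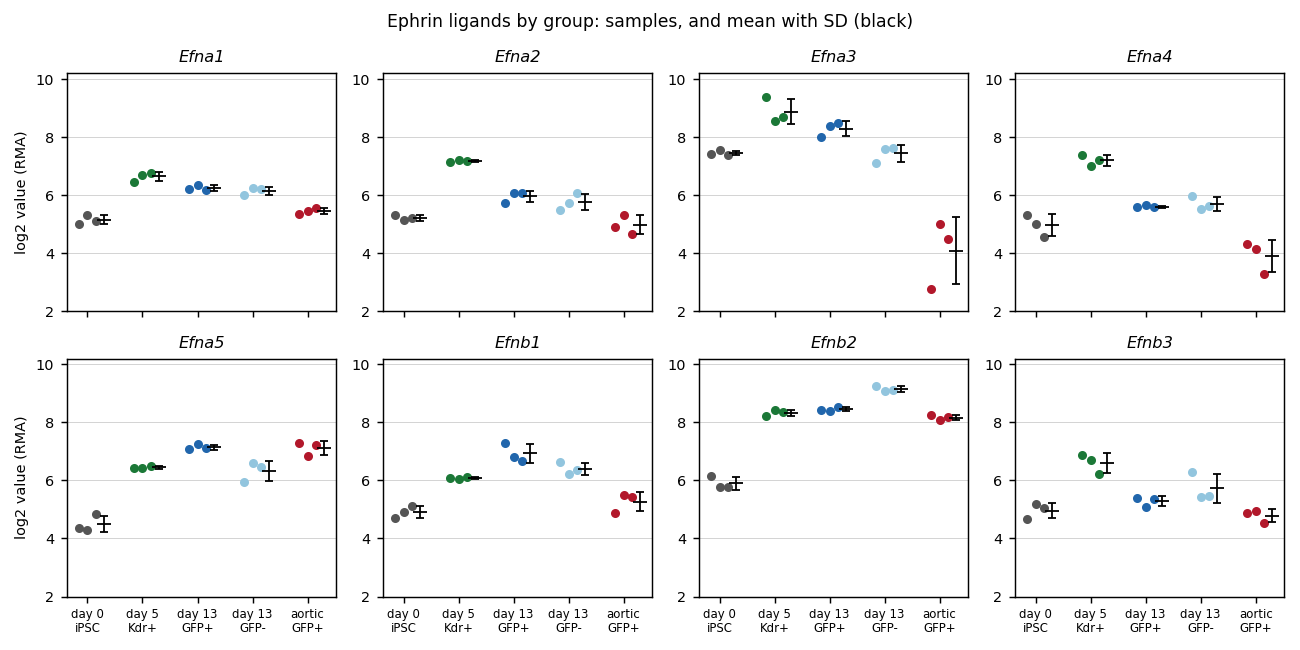
Log2 values of the 8 ephrin genes in each sample of the 5 groups (coloured points), with the group mean and SD in black. All day 5 points lie above the day 0 points in every panel, and the aortic points of Efna3 spread from 2.78 to 5.02.

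Receptors of netrins and semaphorins rose at day 5. Of those given here, Unc5c, Unc5d, Plxna4 and Plxna2 had day 0 means under the median of all probe sets, not shown above background. Unc5c, a netrin receptor, had 7.43, 8.39 and 8.39 at day 5 and 3.89, 4.03 and 3.44 at day 0 (log2 difference 4.29, SE 0.36, limma adjusted p = 1.8e-07). Unc5b (2.32) and Unc5d (0.96) rose too, while the difference of Unc5a was 0.25 (limma adjusted p = 0.338). Plxna4, a plexin that signals for class 3 semaphorins, stood at 6.84, 6.71 and 6.68 in day 5 samples and 2.93, 3.16 and 3.71 in day 0 samples (log2 difference 3.48, SE 0.218, limma adjusted p = 7.04e-09). Plxna2 had 6.74, 6.51 and 6.61 at day 5, against 3.88, 3.53 and 3.71 at day 0 (2.91, SE 0.123, adjusted p = 7.28e-11). Plxnd1, a receptor of Sema3e, had 7.40, 7.88 and 7.73 at day 5, against 5.03, 5.04 and 4.65 at day 0 (2.76, SE 0.254, adjusted p = 4.82e-07). The groups did not overlap in Unc5c, Plxna4, Plxna2 or Plxnd1. Of the 9 plexins 4 rose, Plxnb1 among them (0.61), and Plxna1 fell (-0.48). The call of Plxnb1 was lost without day 0 sample 5 (adjusted p = 0.0783) or day 5 sample 6 (0.0607).

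Semaphorins moved both ways, with 6 of 20 higher and 5 lower at day 5. Sema5a, a transmembrane semaphorin, had 6.37, 6.49 and 6.43 at day 5 and 3.77, 3.95 and 3.98 at day 0 (log2 difference 2.53, SE 0.124, limma adjusted p = 3.92e-10). The decreases were led by Sema4b, with 5.19, 5.02 and 4.94 at day 5, against 7.07, 6.80 and 6.71 at day 0 (-1.81, SE 0.173, adjusted p = 7.42e-07). Sema4g had 3.82, 3.70 and 3.88 at day 5, against 5.20, 5.67 and 5.67 at day 0 (-1.71, SE 0.319, adjusted p = 6e-04). The means of Sema5a, Sema6b and Sema6d at day 0 and of Sema4g at day 5 were under the median of all probe sets. Both class 4 genes are membrane-bound, and their day 5 values lay below all day 0 values. Sema3e, the secreted ligand of Plxnd1, had 4.59, 4.48 and 4.66 at day 5 and 6.16, 6.04 and 6.09 at day 0 (-1.52, SE 0.27, adjusted p = 0.000393), so the ligand fell while its receptor rose. Sema4d and Sema6c fell as well, and Sema3f, Sema4c, Sema6a, Sema6b and Sema6d rose, by 0.72 to 1.85. One call did not hold with a sample left out, with the limma adjusted p in brackets: Sema6d without day 0 sample 3 (0.0737), day 0 sample 5 (0.0798), day 0 sample 6 (0.0555), day 5 sample 3 (0.125) or day 5 sample 6 (0.0902).

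Of the Slits and netrins 3 rose and 1 fell at day 5, and Robo receptors had 2 of 4 members higher. Slit3 rose by 2.03 (SE 0.121, limma adjusted p = 3.96e-09), with 6.78, 6.90 and 6.80 in day 5 samples and 4.67, 4.83 and 4.88 in day 0 samples. Robo1 (1.09) and Robo2 (1.33) also rose, and Slit1 and Slit2 were not called (0.24 and -0.45). Ntn1, the prototype netrin, had 4.36, 4.34 and 4.38 at day 5, against 5.83, 5.85 and 5.91 at day 0 (log2 difference -1.51, SE 0.142, limma adjusted p = 6.36e-07). Ntn4, a netrin of basement membranes, rose by 1.37, and Ntn3 by 0.40. Robo2 and Ntn4 had day 0 means under the median of all probe sets, and Ntn3 had both its day 0 and day 5 means under it. Of the 38 calls of this comparison, 32 held when each of the 6 samples was left out in turn. The other calls lost (limma adjusted p in brackets) were Epha7 without day 0 sample 5 (0.0731), Ephb1 without day 0 sample 5 (0.177), day 5 sample 3 (0.126), day 5 sample 5 (0.0559) or day 5 sample 6 (0.0764), and Ntn3 without day 0 sample 3 (0.134), day 0 sample 5 (0.0771), day 0 sample 6 (0.0693), day 5 sample 5 (0.185) or day 5 sample 6 (0.11).

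Partners outside the 4 ligand-receptor systems were taken from lists written with results of these data known. Of 15 co-receptors and further ligands 5 rose and 2 fell at day 5, and of 27 effectors inside the cell 10 rose and 3 fell. These shares, 46.7% and 48.1%, stand against 28.8% of all probe sets and 48.7% of those above the median mean level. The neuropilin gene Nrp1, a co-receptor of class 3 semaphorins and of VEGF, had 8.47, 8.54 and 8.55 at day 5 and 3.03, 3.03 and 2.94 at day 0 (log2 difference 5.52, SE 0.113, limma adjusted p = 4.04e-14). That day 0 level was under the median of all probe sets and not shown above background, as were those of Flrt3 and L1cam. The related gene Nrp2 had means of 6.81 at day 5 and 6.72 at day 0. Flrt3, a ligand of Unc5 receptors, rose by 3.71, and the adhesion gene L1cam, a partner of Nrp1, by 3.67. Among the effectors, collapsin response mediator genes went both ways, Dpysl2 by 2.49, Dpysl5 by 1.73 and Dpysl3 by -2.18. The netrin receptor gene Dcc stayed between 2.85 and 3.63 as a mean in all groups, and Neo1, which encodes the related receptor neogenin, between 7.16 and 8.82.

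The 2 sorts of day 13 were each compared with the same day 5 Kdr+ samples, so their differences share those samples and are given side by side. The labels call both sorts candidate smooth muscle cells. In GFP+ cells 28 guidance genes rose and 10 fell (57.6%, against 31.2% of all probe sets). In GFP- cells 20 rose and 15 fell (53%, against 26% of all probe sets). Among probe sets above the median mean level the shares were 70% of the guidance genes against 57.2% of all in GFP+ cells, and 64% against 49.4% in GFP- cells. Of the 7 secreted class 3 semaphorins 5 rose in both sorts, as did Slit2, Robo2 and the A-class Eph receptors Epha3 and Epha7, and 4 ephrins fell in GFP+ cells and 5 in GFP- cells. The groups did not overlap in 44 of 66 guidance genes in GFP+ cells (45.3% of all probe sets) and in 41 in GFP- cells (39.6%). Contractile smooth muscle markers rose in 10 of 10 genes in GFP+ cells and in 8 of 10 in GFP- cells. In GFP- cells 8 of 10 endothelial markers (mean levels 4.62 to 4.75 in GFP- samples, against 3.44 to 3.61 at day 5) and 6 of 8 endoderm and epithelial markers (6.90 to 7.01 in GFP- samples, against 4.64 to 4.82 at day 5) rose as well. Fibroblast markers rose in 4 of 7 genes and fell in 1 in each sort, with mean levels of 5.71 to 6.55 in GFP+ samples and 4.78 to 5.89 in GFP- samples, against 4.07 to 4.41 at day 5. The fibroblast marker Dcn had 4.83, 6.96 and 7.26 in GFP+ samples and 3.75, 5.82 and 6.05 in GFP- samples. It was lowest in the sample numbered 3 of both sorts, as were the markers Lum, Col1a1, Pdgfra and Fap, and Sema3c and Slit2. The fibroblast markers Pi16 and Thy1 were highest in that sample of both sorts, with day 13 means under the median of all probe sets. The part of these cells in the guidance gene differences was not tested. In bulk RNA fewer cells of a type and less RNA per cell cannot be told apart.

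Of the 7 class 3 semaphorins 6 rose in GFP+ cells and 5 in GFP- cells, all but Sema3g and, in GFP- cells, Sema3f. Sema3c had 5.62, 7.97 and 8.19 in GFP+ samples and 3.96, 6.99 and 7.30 in GFP- samples, against 2.68, 2.77 and 2.70 at day 5. Its log2 difference from day 5 was 4.54 in GFP+ cells (SE 0.714, limma adjusted p = 0.000102) and 3.36 in GFP- cells (SE 0.714, limma adjusted p = 0.00196). The day 5 level was not shown above background, and the sample numbered 3 was lowest in both sorts. Without it the difference was 5.36 in GFP+ cells and 4.42 in GFP- cells, and without GFP- sample 6 it was 2.75. Sema3a, a strong repellent of axons, had 6.79, 9.55 and 9.65 in GFP+ samples and 7.71, 8.80 and 8.91 in GFP- samples, against 6.29, 5.61 and 5.48 at day 5. That is a log2 difference of 2.86 in GFP+ cells (SE 0.553, adjusted p = 0.00066), or 3.80 without GFP+ sample 3, and of 2.68 in GFP- cells (SE 0.553, adjusted p = 0.00157). Sema3b, Sema3d and Sema3e rose by 1.21, 1.56 and 0.99 in GFP+ cells and by 0.71, 0.93 and 1.88 in GFP- cells, and Sema3f by 0.52 in GFP+ cells. The day 5 and GFP- means of Sema3d were also under the median of all probe sets. Some of these calls rested on 1 sample. The Sema3e call in GFP+ cells was lost without GFP+ sample 3 (adjusted p = 0.0569) and that of Sema3f without day 5 sample 3 (0.061) or GFP+ sample 6 (0.0896). The Sema3d call in GFP- cells was lost without day 5 sample 6 (0.0717), GFP- sample 5 (0.0664) or GFP- sample 6 (0.0655).

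The membrane semaphorins Sema6a and Sema6d rose in both sorts, by 1.64 and 2.40 in GFP+ cells and by 1.73 and 1.79 in GFP- cells, and Sema6b fell in both (-0.99 and -0.97). Sema4g rose in both (1.62 and 1.35). Sema5a rose in GFP+ cells (0.74) and had a difference of -0.15 in GFP- cells. Of the plexins, Plxnb2 (1.18 and 1.07) and Plxnc1 (1.70 and 2.06) rose in GFP+ and GFP- cells. Sema4g and Plxnc1 had day 5 means under the median of all probe sets, and Sema6b had both day 13 means under it. Plxna4 had 5.99, 5.16 and 5.29 in GFP+ samples and 4.97, 4.53 and 4.67 in GFP- samples, against 6.84, 6.71 and 6.68 at day 5 (log2 differences -1.27 and -2.02, SE 0.218 each, limma adjusted p = 0.000236 and 3.8e-06). Plxnd1 had 6.82, 6.40 and 6.24 in GFP+ samples and 7.44, 6.44 and 6.24 in GFP- samples, against 7.40, 7.88 and 7.73 at day 5 (-1.18 and -0.96, SE 0.254 each, limma adjusted p = 0.00161 and 0.00942). These plexins had risen by day 5, as had Plxna2 and Plxnb1, which were not called at day 13 (-0.12 and -0.11 in GFP+ cells, -0.31 and 0.17 in GFP- cells). GFP- sample 3 of Plxnd1 overlapped the day 5 range. The Plxnd1 call in GFP- cells was lost without GFP- sample 6 (adjusted p = 0.0593). The co-receptors split, with Nrp1 at means of 7.15 in GFP+ and 7.01 in GFP- cells against 8.52 at day 5, and Nrp2 at 8.95 and 7.97 against 6.81.

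Of the 9 A-class Eph receptors 5 rose and 1 fell in GFP+ cells, and 4 rose and 1 fell in GFP- cells. Epha7 had 7.83, 8.17 and 8.22 in GFP+ samples and 8.05, 8.59 and 8.63 in GFP- samples, against 5.24, 5.31 and 5.22 at day 5, log2 differences of 2.82 and 3.17 (SE 0.166 each, limma adjusted p = 4.04e-09 and 2.26e-09). Epha3 rose by 2.69 in GFP+ cells and 1.89 in GFP- cells, Epha2 by 1.47 and 1.67, and Epha4 by 0.70 and 0.70. The day 5 mean of Epha3 was under the median of all probe sets. None of the 5 B-class receptors was called in GFP+ cells, and Ephb2 and Ephb3 fell in GFP- cells. Ephb2, a receptor of B-class ephrins, had 4.49, 5.25 and 5.30 in GFP- samples, against 6.04, 6.70 and 6.61 at day 5 (-1.44, SE 0.208, limma adjusted p = 7.18e-05). Efna4, whose promoter is printed above, had 5.59, 5.65 and 5.59 in GFP+ samples and 5.96, 5.51 and 5.61 in GFP- samples, against 7.39, 7.01 and 7.22 at day 5 (-1.60 and -1.51, SE 0.236 each, limma adjusted p = 5.5e-05 and 0.000146). Efna2 had 5.73, 6.07 and 6.07 in GFP+ samples and 5.50, 5.72 and 6.08 in GFP- samples, against 7.13, 7.19 and 7.17 at day 5 (-1.21 and -1.40, SE 0.172 each, limma adjusted p = 3.83e-05 and 1.42e-05). Efnb3 fell by 1.30 in GFP+ cells and by 0.87 in GFP- cells. The day 13 values of these 3 ephrins lay below those of day 5, except GFP- sample 3 of Efnb3. The Efnb3 call in GFP- cells was lost without day 5 sample 3 (adjusted p = 0.0571), GFP- sample 5 (0.0561) or GFP- sample 6 (0.0523).

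Efna1 fell in both sorts (-0.40 in GFP+ cells and -0.49 in GFP- cells). Efnb1 and Efna5 rose in GFP+ cells (0.84 and 0.69) and were not called in GFP- cells (0.32 and -0.12). Efnb2 rose in GFP- cells (0.82) and was not called in GFP+ cells (0.13, limma adjusted p = 0.557). Efna3 had 7.10, 7.61 and 7.62 in GFP- samples, against 9.37, 8.57 and 8.69 at day 5 (-1.43, SE 0.4, limma adjusted p = 0.0133), and a difference of -0.58 in GFP+ cells that was not called (limma adjusted p = 0.35). In the direct comparison of the sorts Efnb1 and Efna3 were not called (limma adjusted p = 0.158 and 0.339). The call of Efna3 was lost without day 5 sample 3 (adjusted p = 0.0726) or GFP- sample 3 (0.0514).

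Slit2 and its receptor Robo2 rose in both sorts at day 13. Slit2 had 7.34, 8.86 and 9.05 in GFP+ samples and 5.85, 8.09 and 8.20 in GFP- samples, against 4.79, 4.45 and 4.64 at day 5. The log2 differences were 3.79 in GFP+ cells (SE 0.501, 13.8-fold, limma adjusted p = 1.83e-05) and 2.75 in GFP- cells (SE 0.501, limma adjusted p = 0.00056), the second being 3.52 without GFP- sample 3. Robo2 had 8.15, 8.10 and 8.18 in GFP+ samples and 6.37, 6.94 and 7.53 in GFP- samples, against 4.06, 4.70 and 4.79 at day 5. Its log2 differences were 3.63 in GFP+ cells (SE 0.285, 12.3-fold, limma adjusted p = 7.61e-08) and 2.43 in GFP- cells (SE 0.285, limma adjusted p = 8.87e-06). All day 13 samples of both genes lay above all day 5 samples. Robo1 did not pass in either sort (0.22 and -0.01). Slit3 rose in GFP+ cells (0.48) and fell in GFP- cells (-0.43), a GFP- call lost without day 5 sample 5 (adjusted p = 0.0648) or GFP- sample 3 (0.0582).

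Netrin receptors moved both ways at day 13. Unc5b rose by 1.16 in GFP+ cells and 1.04 in GFP- cells, and Unc5d fell by 1.10 in GFP+ cells and by 1.19 in GFP- cells. Unc5a fell in GFP- cells (-0.72), and Unc5c was not called in either sort (0.20 and -0.93). Both day 13 means of Unc5d and the GFP- mean of Unc5a were under the median of all probe sets. The GFP- difference of Unc5c was called without GFP- sample 6 (-1.19, adjusted p = 0.0369) or day 5 sample 3 (-1.25, adjusted p = 0.0249). Ntn4 rose in GFP- cells (1.18) and was not called in GFP+ cells (0.12). Ntn1 rose by 0.43 in GFP+ cells, a call lost without any 1 of 5 of the 6 samples (adjusted p in brackets), Ntn1 without day 5 sample 3 (0.0706), day 5 sample 5 (0.0805), day 5 sample 6 (0.0669), GFP+ sample 3 (0.121) or GFP+ sample 5 (0.0878). With each sample left out in turn, 30 of 38 calls held in GFP+ cells and 26 of 35 in GFP- cells. The other calls lost in GFP+ cells (limma adjusted p in brackets) were Efna1 without day 5 sample 5 (0.0899), day 5 sample 6 (0.119), GFP+ sample 3 (0.0738) or GFP+ sample 6 (0.0921), Epha5 without day 5 sample 5 (0.0661), day 5 sample 6 (0.0761) or GFP+ sample 6 (0.0842), Ntn3 without day 5 sample 3 (0.161), day 5 sample 6 (0.0727), GFP+ sample 5 (0.0539) or GFP+ sample 6 (0.171), Sema4c without day 5 sample 3 (0.088), day 5 sample 5 (0.072), day 5 sample 6 (0.122), GFP+ sample 3 (0.146) or GFP+ sample 6 (0.0805), and Sema7a without day 5 sample 3 (0.232), GFP+ sample 5 (0.223) or GFP+ sample 6 (0.0765). Those lost in GFP- cells were Epha1 without day 5 sample 3 (0.162), day 5 sample 5 (0.0597), GFP- sample 5 (0.0944) or GFP- sample 6 (0.0881), Ephb3 without day 5 sample 5 (0.103), day 5 sample 6 (0.166), GFP- sample 5 (0.203) or GFP- sample 6 (0.0549), Plxna3 without day 5 sample 3 (0.0998), day 5 sample 5 (0.0937), day 5 sample 6 (0.127) or GFP- sample 3 (0.222), and Sema4a without day 5 sample 3 (0.0805), day 5 sample 5 (0.13), day 5 sample 6 (0.119), GFP- sample 3 (0.155) or GFP- sample 6 (0.137).

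Of the 15 co-receptors and further ligands 7 rose and 4 fell in GFP+ cells, and 4 rose and 4 fell in GFP- cells. Of the 27 effectors 10 rose and 4 fell in GFP+ cells, and 9 rose and 6 fell in GFP- cells. The shares called in GFP+ cells were 73.3% and 51.9%, against 31.2% of all probe sets and 57.2% above the median mean level. In GFP- cells they were 53.3% and 55.6%, against 26% and 49.4%. Dpysl3, a mediator of semaphorin signals to the cytoskeleton, rose by 3.77 in GFP+ and 2.35 in GFP- cells, Mical2, which oxidises actin, by 3.42 and 2.28, and Flrt2, which encodes a ligand of Unc5 receptors, by 2.81 and 2.46. L1cam fell by 3.57 in GFP+ and by 3.10 in GFP- cells. The day 5 means of Mical2 and Flrt2 and the GFP+ mean of L1cam were under the median of all probe sets.

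**Figure D3:**
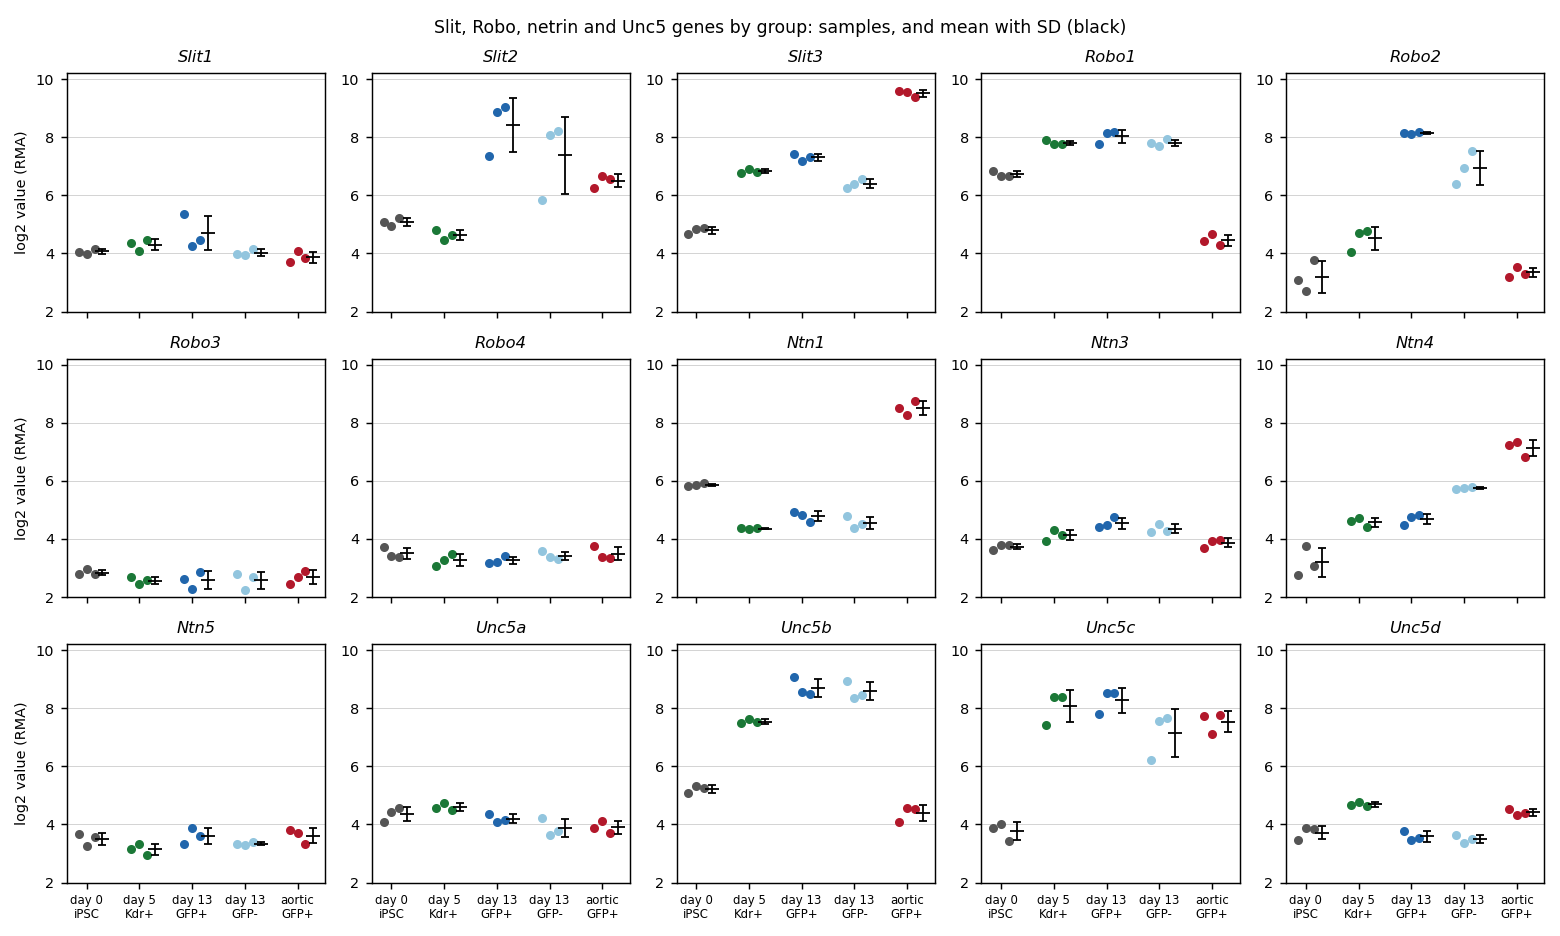
Log2 values of the Slit, Robo, netrin and Unc5 genes in each sample of the 5 groups (coloured points), with the group mean and SD in black. Robo2 lies near 8.14 in all GFP+ samples of day 13, Slit3, Ntn1 and Ntn4 are highest in the aortic samples, and Robo1 and Unc5b are lowest there.

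The GFP+ cells of day 13 were compared with the GFP- cells to show what goes with reporter activity. Of 10 contractile smooth muscle markers 2 were higher and 1 was lower in GFP+ cells. Their mean levels were 6.71 to 6.95 in GFP+ samples and 6.28 to 6.49 in GFP- samples. The higher genes were Tagln (9.39 in GFP+ and 8.355 in GFP- cells) and Actg2 (6.92 and 5.33). The lower gene was Myocd, which averaged 5.53 in GFP+ and 6.97 in GFP- cells. Acta2, the gene of the reporter, averaged 11.32 in GFP+ and 10.67 in GFP- cells and was not called. Robo2, Ephb2, Slit3, Sema5a, Efna5 and Plxna1 were higher in GFP+ cells, and Ntn4 and Efnb2 were lower. These 8 calls are 12.1% of the 66 genes, against 4.53% of all probe sets (2.02% higher and 2.52% lower), and 18% against 9.82% above the median mean level. The groups did not overlap in 22 of 66 guidance genes and in 19.5% of all probe sets. Same-numbered GFP+ and GFP- samples deviated together (r from 0.397 to 0.597), and the fit was repeated with the number as a block. The labels do not say that equal numbers mark 1 culture. Samples 5 and 6 of opposite sorts also correlated (r = 0.345 and 0.278), and sample 3 correlated negatively with both. With the block over the 12 cultured samples 7 genes were higher and 2 lower, and over the 6 day 13 samples alone, a fit added after the check, 15 were higher and 4 lower, where 8.45% of all probe sets were called.

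Slit3 had 7.41, 7.17 and 7.32 in GFP+ samples and 6.25, 6.38 and 6.57 in GFP- samples (log2 difference 0.90, SE 0.121, 1.87-fold, limma adjusted p = 0.000426). Robo2 had 8.15, 8.10 and 8.18 in GFP+ samples and 6.37, 6.94 and 7.53 in GFP- samples (1.20, SE 0.285, limma adjusted p = 0.0239). The GFP+ values of Robo2 were nearly equal while the GFP- values spread over more than 1 log2 unit. Sema5a had 7.31, 7.08 and 7.13 in GFP+ and 6.21, 6.28 and 6.36 in GFP- samples (0.89, SE 0.124, limma adjusted p = 0.000573). Ephb2 had 5.91, 5.97 and 5.91 in GFP+ and 4.49, 5.25 and 5.30 in GFP- samples (0.92, SE 0.208, limma adjusted p = 0.0182). Efna5 had 7.07, 7.24 and 7.11 in GFP+ and 5.95, 6.61 and 6.46 in GFP- samples (0.81, SE 0.18, limma adjusted p = 0.0166). In all of these genes each GFP+ sample lay above each GFP- sample, and Plxna1 followed with 0.58. Leaving out 1 sample ended the calls of Robo2, Ephb2 and Efna5. They were lost (limma adjusted p in brackets) for Robo2 without GFP- sample 3 (0.0949), GFP- sample 5 (0.0725), GFP+ sample 3 (0.0541), GFP+ sample 5 (0.0645) or GFP+ sample 6 (0.0807). The same was seen for Ephb2 without GFP- sample 3 (0.06), GFP+ sample 5 (0.063) or GFP+ sample 6 (0.0602), and for Efna5 without GFP- sample 3 (0.0617), GFP+ sample 5 (0.0685) or GFP+ sample 6 (0.0546). All 3 calls held with the number as a block over the day 13 samples (adjusted p from 0.0101 to 0.0152). The count of higher genes was 3 without GFP- sample 3 or without GFP+ sample 6.

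The lower pair was Ntn4 and Efnb2. Ntn4 had 4.49, 4.76 and 4.82 in GFP+ samples and 5.70, 5.74 and 5.79 in GFP- samples (log2 difference -1.06, SE 0.207, limma adjusted p = 0.00728). Efnb2 had 8.44, 8.40 and 8.54 in GFP+ samples and 9.27, 9.07 and 9.12 in GFP- samples (-0.69, SE 0.126, limma adjusted p = 0.00445). Neither gene overlapped between the sorts. Markers of other cells moved with this comparison. All 8 endoderm and epithelial markers were lower in GFP+ than in GFP- cells, with mean levels of 4.32 to 4.68 in GFP+ samples and 6.90 to 7.01 in GFP- samples. Of 10 endothelial markers 4 were lower in GFP+ cells and 0 higher, with mean levels of 3.94 to 4.01 in GFP+ samples and 4.62 to 4.75 in GFP- samples. The endothelial cadherin gene Cdh5 averaged 4.77 in GFP+ and 6.88 in GFP- cells. Erg went the other way, with 6.53 in GFP+ and 6.04 in GFP- cells, and was not called. The endothelial markers Tie1, Emcn, Esam, Cldn5 and Sox18 had means under the median of all probe sets in both sorts. The part of these cells in the differences of Ntn4, Efnb2 and the genes higher in GFP+ cells was not tested.

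With the number as a block over the 6 day 13 samples, 11 further guidance genes passed. Sema3c (1.18, adjusted p = 0.00521), Unc5c (1.13, 0.00508), Slit2 (1.04, 0.00719), Epha3 (0.79, 0.00642) and Efna3 (0.85, 0.00359) were the largest of those higher in GFP+ cells. In the fit without the block, Sema3c was 0.11 without GFP- sample 3 and otherwise between 0.71 (without GFP+ sample 6) and 2.00 (without GFP+ sample 3). Slit2 was 0.27 without GFP- sample 3 and otherwise between 0.72 (without GFP+ sample 6) and 1.58 (without GFP+ sample 3). Unc5c had 7.78, 8.52 and 8.52 in GFP+ and 6.21, 7.55 and 7.67 in GFP- samples, each GFP+ sample above its own GFP- partner. The day 13 samples numbered 3 carried lower levels than those numbered 5 and 6 in both sorts for Sema3c, Slit2 and Unc5c. Of the partner lists, 2 co-receptors or further ligands were higher in GFP+ cells and 1 was lower, with Nrp2 at 0.98, Plxdc2 at 0.91 and Flrt3 at -0.95. Nrp2 had 8.90, 8.91 and 9.04 in GFP+ and 7.95, 7.94 and 8.02 in GFP- samples (limma adjusted p = 0.000703). Of 27 effectors Dpysl3 (1.42) and Mical2 (1.14) were higher and 0 lower. The shares called of the 2 lists were 20% and 7.41%, against 4.53% of all probe sets and 9.82% above the median mean level.

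**Figure D4:**
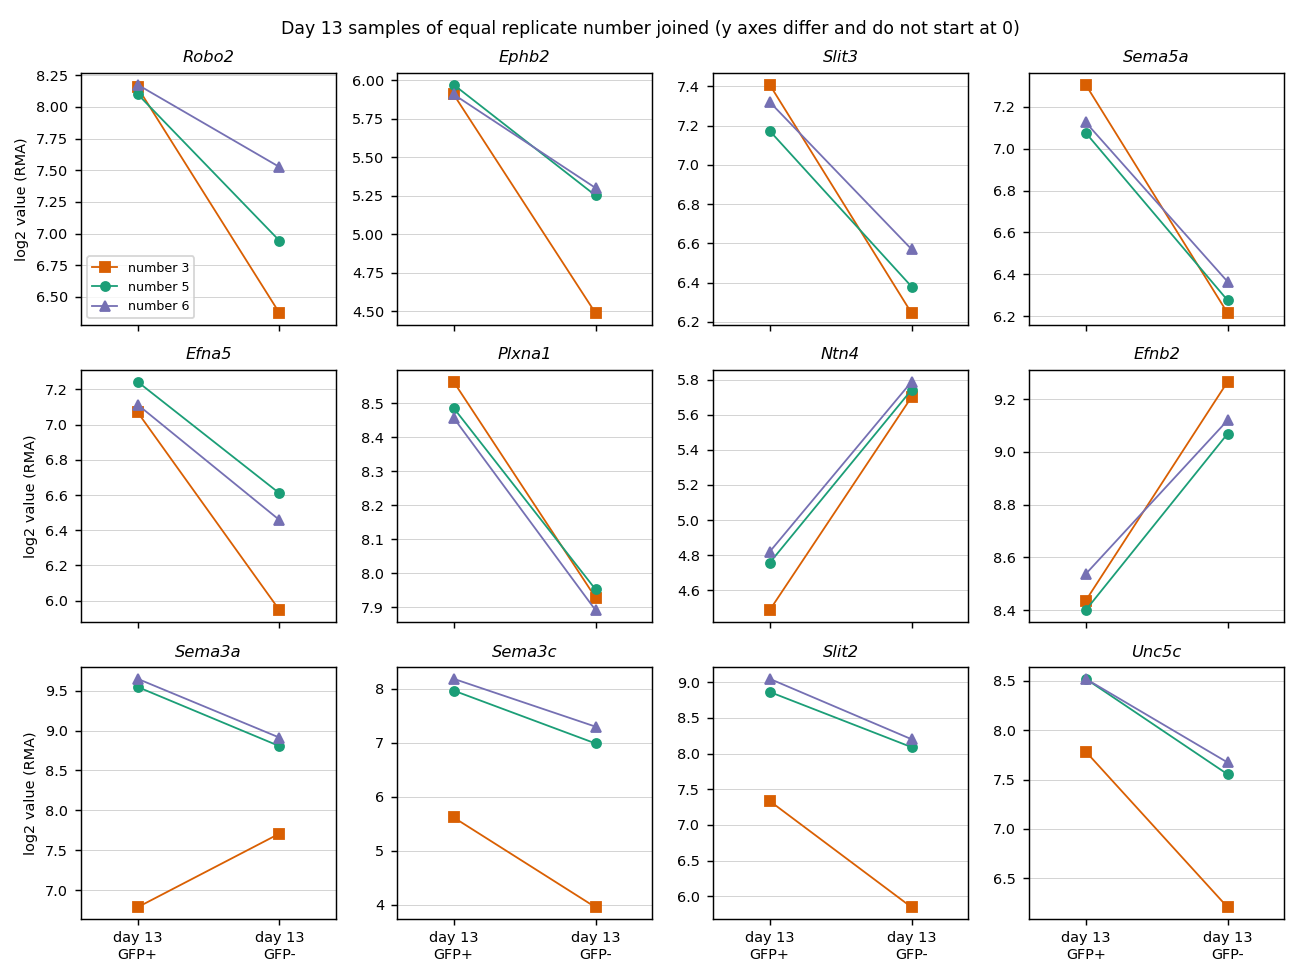
Log2 values of 12 guidance genes in the day 13 samples, GFP+ on the left and GFP- on the right of each panel, with samples of equal replicate number joined; the y axes differ and do not start at 0. The first 8 panels are the genes called between the sorts, and in Sema3a, Sema3c and Slit2 the samples numbered 3 lie below those numbered 5 and 6.

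The GFP+ cells of day 13 were compared with primary aortic GFP+ cells, the study's positive control. This was done to show how they stand against smooth muscle of the vessel wall. Here 26 guidance genes were higher in the day 13 cells and 15 lower (62.1%, against 37.2% of all probe sets, and 72% against 57.1% above the median mean level). The groups did not overlap in 49 guidance genes and in 44.9% of all probe sets. Robo1, Robo2, Unc5b, Efna3 and Sema6a were far higher in the day 13 cells, and the ligands Ntn1, Ntn4, Slit3 and Sema3d were far lower. Ephrins had 5 of 8 members higher and 0 lower, and Eph receptors 6 of 14 higher and 2 lower. Class 3 semaphorins had 0 of 7 higher and 5 lower, while 3 of 4 class 6 semaphorins were higher.

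The receptors Robo2, Unc5b and Robo1 were higher in the day 13 cells. The aortic mean of Robo2 was under the median of all probe sets and not shown above background, so no fold is given for it. Robo2 had 8.15, 8.10 and 8.18 in day 13 GFP+ samples and 3.20, 3.53 and 3.30 in aortic samples (log2 difference 4.80, SE 0.285, limma adjusted p = 2.34e-09). Unc5b had 9.07, 8.55 and 8.49 in day 13 GFP+ samples and 4.08, 4.58 and 4.53 in aortic samples (4.30, SE 0.186, 19.7-fold, limma adjusted p = 6.52e-11). Robo1 had 7.76, 8.15 and 8.17 in day 13 GFP+ samples and 4.41, 4.65 and 4.29 in aortic samples (3.57, SE 0.137, 11.9-fold, limma adjusted p = 1.64e-11). For each of the 3 receptors the aortic values lay well below all day 13 values of both sorts. Unc5d moved the other way (-0.83), with a GFP+ mean under the median of all probe sets, and Unc5c was not called (0.74, limma adjusted p = 0.123).

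Promoters of Unc5b and Robo1 are printed because they are the other 2 of these receptors, and Robo2 has several windows in the table. The Unc5b window is chr10:60831532-60831831 (- strand) and the Robo1 window chr16:72662899-72663198 (+ strand), from RefSeq GRCm38.p6 as above, with the same motifs in capitals.
Unc5b: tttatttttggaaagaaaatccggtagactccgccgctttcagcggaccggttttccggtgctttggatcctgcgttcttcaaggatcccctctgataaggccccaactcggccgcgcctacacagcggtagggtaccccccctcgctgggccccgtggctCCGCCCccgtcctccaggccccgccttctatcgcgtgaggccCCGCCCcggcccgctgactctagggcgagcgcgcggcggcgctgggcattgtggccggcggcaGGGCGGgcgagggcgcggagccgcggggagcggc
Robo1: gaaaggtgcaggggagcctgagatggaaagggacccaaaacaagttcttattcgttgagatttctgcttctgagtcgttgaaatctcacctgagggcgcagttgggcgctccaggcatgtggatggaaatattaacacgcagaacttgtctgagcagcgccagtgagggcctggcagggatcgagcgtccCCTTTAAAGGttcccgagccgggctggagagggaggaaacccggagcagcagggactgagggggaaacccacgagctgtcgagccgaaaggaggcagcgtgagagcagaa
Unc5b held 36 CpG and 3 GC boxes. Robo1 held 15 CpG and 1 CArG box, which was found in the windows of Robo1 and Sema4d among the guidance genes (2.74% of 73 windows) and in 1.63% of all windows.

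Of the ligands of these receptors, Ntn1, Ntn4 and Slit3 were lower in the day 13 cells, and Slit1, Slit2 and Ntn3 were higher. Ntn1 had 4.94, 4.83 and 4.59 in day 13 GFP+ samples and 8.52, 8.26 and 8.74 in aortic samples (log2 difference -3.72, SE 0.142, 13.2-fold lower, limma adjusted p = 1.62e-11). Ntn4 had 4.49, 4.76 and 4.82 in day 13 GFP+ samples and 7.22, 7.33 and 6.82 in aortic samples (-2.44, SE 0.207, limma adjusted p = 1.37e-07). Slit3 had 7.41, 7.17 and 7.32 in day 13 GFP+ samples and 9.60, 9.55 and 9.37 in aortic samples (-2.21, SE 0.121, limma adjusted p = 9.9e-10). No day 13 sample of these 3 genes reached an aortic one. Slit2 differed in the other direction (1.92, SE 0.501, limma adjusted p = 0.00647), with aortic values of 6.24, 6.68 and 6.56, and so did Slit1 (0.83) and Ntn3 (0.68). The aortic means of Slit1 and Ntn3 were under the median of all probe sets.

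Among semaphorins, Sema3d, a secreted ligand of neuropilins, had 4.07, 4.88 and 4.85 in day 13 GFP+ samples and 7.92, 7.14 and 7.96 in aortic samples (log2 difference -3.08, SE 0.263, limma adjusted p = 1.51e-07). Sema3b, Sema3e, Sema3f and Sema3g were lower in day 13 GFP+ cells as well (-0.81, -1.69, -1.01 and -0.33). Sema3a and Sema3c, the class 3 genes that rose most at day 13, were not called (1.27 and -1.01). Without GFP+ sample 3 the Sema3a difference was 2.21 and was called (adjusted p = 4.79e-05), and it was 0.83 without GFP+ sample 5 and 0.78 without GFP+ sample 6. That of Sema3c was -0.19 without GFP+ sample 3 and -1.48 without GFP+ sample 6. Sema4a had 4.13, 3.95 and 4.15 in day 13 GFP+ samples and 5.27, 6.27 and 5.85 in aortic samples (-1.72, SE 0.198, limma adjusted p = 4.21e-06). The GFP+ means of Sema4a and Sema3g were under the median of all probe sets. Sema6a, a transmembrane ligand of A-class plexins, had 7.58, 8.28 and 8.55 in day 13 GFP+ samples and 4.79, 5.14 and 4.81 in aortic samples (3.22, SE 0.224, 9.33-fold, limma adjusted p = 1.38e-08). Its receptor genes split, with Plxna4 lower in the day 13 cells (-1.63) and Plxna2 not called (-0.06). Plxna1, Plxna3, Plxnb2 and Plxnc1 were higher, by 1.24 to 1.57, and Plxnb1 was lower (-0.77). Sema5a was lower in the day 13 cells (-1.18), and Sema4d, Sema4g, Sema6c and Sema6d were higher. The aortic means of Sema4d, Sema4g and Plxnc1 were under the median of all probe sets.

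Of the ephrins, Efna3 had 8.001, 8.38 and 8.50 in day 13 GFP+ samples and 2.78, 5.02 and 4.48 in aortic samples (log2 difference 4.20, SE 0.4, limma adjusted p = 5.22e-07). Aortic sample 1 was the lowest, and without it the difference was 3.54. The aortic means of Efna3, Efna4 and Ephb2 were under the median of all probe sets. Efna1, Efna2, Efna4 and Efnb1 were higher by 0.80, 0.99, 1.69 and 1.67, and Efna5 and Efnb2 were not called (0.03, SE 0.18, and 0.30, SE 0.126). Of the receptors Epha4 (2.22), Epha7 (2.05), Epha2 (1.94), Ephb2 (1.74), Ephb4 (1.09) and Ephb3 (1.07) were higher and Epha3 was lower (-1.49, with aortic values of 7.75, 7.76 and 8.06). The aortic samples thus held the highest Epha3 and the lowest Epha4 means of the 5 groups.

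With each of the 6 samples left out in turn, 37 of the 41 calls of this comparison held, and those of Epha1, Sema3g, Sema4d and Sema6d did not. The calls lost, with the limma adjusted p in brackets, were Epha1 without GFP+ sample 5 (0.107), GFP+ sample 6 (0.0766), aortic sample 1 (0.0641), aortic sample 2 (0.0684) or aortic sample 3 (0.0781), Sema3g without GFP+ sample 5 (0.141), GFP+ sample 6 (0.0766), aortic sample 2 (0.115) or aortic sample 3 (0.116), Sema4d without GFP+ sample 3 (0.079) or aortic sample 2 (0.0556), and Sema6d without aortic sample 3 (0.051). Markers of other cells moved with the aortic samples. Of 10 endothelial markers 7 were lower in day 13 GFP+ cells (mean levels 3.94 to 4.01 in GFP+ samples and 5.28 to 5.60 in aortic samples), and of 7 fibroblast markers 4 were lower and 1 higher (5.71 to 6.55 in GFP+ samples and 7.23 to 8.23 in aortic samples). Of 7 measured leukocyte markers 5 were lower (3.58 to 3.72 in GFP+ samples and 4.66 to 5.21 in aortic samples). Contractile smooth muscle markers were lower in 9 of 10 genes (6.71 to 6.95 in GFP+ samples and 9.969 to 10.197 in aortic samples). The part of these cells in the guidance gene differences was not tested. Of the partner lists, 5 co-receptors or further ligands were higher and 4 lower, and 7 effectors higher and 9 lower. These shares, 60% and 59.3%, stand against 37.2% of all probe sets and 57.1% of those above the median mean level. Nrp2 (3.54) and Flrt3 (3.26) were higher in day 13 cells, and the small GTPase gene Rnd1, which acts downstream of plexins, was lower (-3.05). Srgap1, which links Robo receptors to the cytoskeleton, was higher (2.56). The aortic means of Flrt3 and Srgap1 were under the median of all probe sets.

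**Figure D5:**
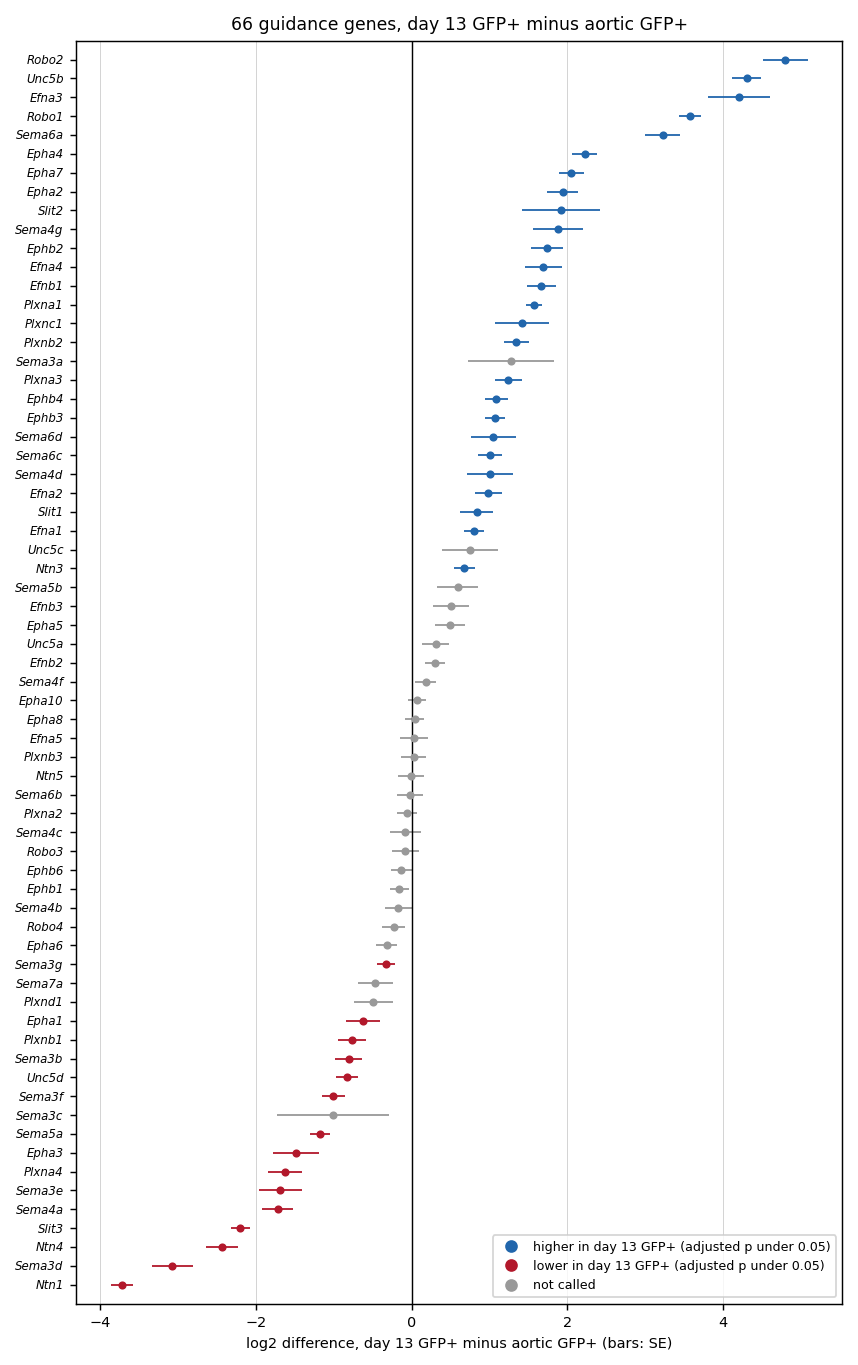
Log2 difference between day 13 GFP+ and aortic GFP+ cells for each of the 66 guidance genes, ordered by size, with the SE as a bar; positive values are higher in day 13 GFP+ cells. Blue marks 26 genes called higher and red 15 called lower, from Robo2 at 4.80 to Ntn1 at -3.72.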

How the data were processed

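RNA of 15 mouse samples was read on Affymetrix Mouse Gene 2.0 ST arrays. Each probe set has 1 log2 value, deposited by the authors after RMA (affy 1.36.1, R 2.15.1, per the submitters' processing notes). That the scale is log2 follows from the values, and no source used here names a genome build. RefSeq gave symbols by Entrez ID to 23740 of 25206 probe sets, and no filter was applied. A group-means model over all samples was fitted with limma 3.58.1 (R 4.3.3, 10 residual and 5.09 prior degrees of freedom), with 5 comparisons and Benjamini-Hochberg adjustment over all probe sets within each (threshold 0.05). Errors written as SE belong to the difference. The fit was tested on simulated data. The members and lists were chosen with earlier results of these data known. By rule the text gives the 5 called guidance genes with the largest change in each direction, up to 3 called genes of each partner list, Nrp1, Nrp2, Dcc and Neo1, and other guidance genes by family. Tbxt was matched as T, and Lyz2 had no named probe set. Same-numbered day 13 samples deviated together from their group means (r from 0.397 to 0.597). Same-numbered samples of the other pairs of cultured groups did not (r from -0.091 to 0.079). The reported fit had no block in any comparison, and the number served as a block only in alternative fits. The labels do not say that equal numbers mark 1 culture, and r between samples 5 and 6 of opposite sorts was 0.345 and 0.278. Alternatives were fits of 2 groups, variance trends, array weights, 3 scalings, a level filter, replicate blocks and leaving out samples.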

Additional observations from a re-analysis of the deposited data

Results flagged for a closer look

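Slit3 was called in opposite directions in the 2 sorts of day 13 against the same day 5 samples, with log2 differences of 0.48 in GFP+ cells and -0.43 in GFP- cells. The difference between the sorts, 0.90 (SE 0.121, limma adjusted p = 0.000426), is the test of that contrast, and it was positive in 3 of 3 pairs of equal number. The GFP- call was lost under cyclic loess (limma adjusted p = 0.0856).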

How the results depend on the processing

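No call reversed under any alternative run. The counts of guidance genes called higher and lower stayed within 1.5 times of those reported under every alternative for the day 5, both day 13 against day 5 and the aortic comparisons, and with 1 sample left out they ranged from 25 to 28 higher and 8 to 8 lower at day 5, 24 to 27 and 8 to 10 in GFP+ cells, 18 to 21 and 11 to 13 in GFP- cells, and 25 to 27 and 13 to 16 against the aortic cells. The comparison of the day 13 sorts moved. Against 6 higher and 2 lower, a fit of those 2 groups alone gave 3 higher, array weights gave 14 higher and 4 lower, and the replicate block over the 6 day 13 samples, added after the data were seen, gave 15 higher and 4 lower. Leaving out 1 sample gave 3 to 7 higher and 2 to 3 lower. The cause was not tested. Over all probe sets 1142 were called between the sorts, against 459 in the fit of 2 groups, 2945 with array weights, 2130 with the block over day 13 samples, and 653 without GFP+ sample 6 and 729 without GFP- sample 5. In GFP- cells against day 5 the count was 6542, and 10102 with array weights. The planned replicate block over the 12 cultured samples gave 7 higher and 2 lower there, and 29 and 8 at day 5, 28 and 12 in GFP+ cells and 20 and 16 in GFP- cells against day 5. No fixed block could be fitted against the aortic cells, which share only the number 3 with the cultures. Without both day 13 samples numbered 3, also added, the counts were 27 and 12 in GFP+ cells, 19 and 12 in GFP- cells, 5 and 2 between the sorts and 27 and 17 against the aortic cells. Scaling shifted sample medians by up to 0.107 (median centring, and likewise quantile normalization) or 0.151 (cyclic loess). No presence calls or scan dates were used, so low levels and array batches were not examined.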
